A study of Homo sapiens with 4 samples.

Results

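Tight junction and desmosome genes were followed in NCI-H1048 cells, a human small cell lung cancer line of the tuft cell-like kind. Members were every gene symbol of the claudin family, the other tight junction membrane proteins OCLN, F11R, MARVELD2 and MARVELD3, tight junction plaque proteins such as TJP1, TJP3, CGN and CGNL1, the desmogleins, the desmocollins and the desmosomal plaque proteins DSP, JUP, PKP1 to PKP4, PPL and EVPL. This rule found 48 of the 35979 symbols in the files. Poly(A) RNA was sequenced in 4 libraries of the same line, which differ by the guide RNA (gRNA) the cells received. There were 2 libraries with gRNA against COLCA2, 1 with a guide against POU2F3 and 1 with a non-targeting guide, here the control. The COLCA2 libraries are titled gRNA 1 and 2, here read as different guides. The labels give the genotype as COLCA2 knockout, POU2F3 knockout and WT, and they name no other treatment or time and do not say whether the cells were a pool or a clone. POU2F3 is the transcription factor on which tuft-like small cell lung cancer depends, and COLCA2 encodes a co-activator that the study links to it. The recovered reads per library ranged from 21587741 to 29632382.

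Tight junctions seal the space between neighbouring epithelial cells near their apical side. Claudins form the strands of the seal and set which ions pass, occludin and the MARVEL proteins join them, and plaque proteins such as ZO-1, encoded by TJP1, anchor the strands to actin. Desmosomes are spot-like junctions that resist pulling. Their adhesive cadherins, the desmogleins and desmocollins, bind plakoglobin (JUP) and plakophilins, which bind desmoplakin (DSP), and desmoplakin holds the keratin filaments. Simple epithelia use mainly DSG2 and DSC2, whereas DSG1, DSG3, DSC1, DSC3 and PKP1 are best known from stratified epithelia such as skin.

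The targeted genes were checked first, in normalized counts, the deposited unit. POU2F3 stood at 14602 in the control, at 1449 under its own guide and at 3677 and 2351 under COLCA2 guides 1 and 2. COLCA2 stood at 5585, 1393, 3119 and 3541 in the same order, so each gene was lowest under the POU2F3 guide. All 5 general epithelial markers were present in every library, and their sum was 12971 in the control and between 28210 and 39450 in the others. CDH1, KRT8, KRT18 and KRT19 were each higher in all 3 targeting libraries, with log2 ratios between 1.22 and 2.57, whereas EPCAM was lower, at 3986 in the control and between 2463 and 3408 in the others. The summed level of the 12 tuft markers was 53236 in the control and between 10449 and 16232 in the others. That sum includes the targeted gene POU2F3 itself, at 14602 in the control, and SOX9, at 17848 there. Besides POU2F3, the markers AVIL, SOX9, ASCL2, GFI1B, BMX, LRMP and ALOX5 were each lower in all 3, with log2 ratios between -4.58 and -0.92. Of the tuft markers TRPM5 and HPGDS were at most 2.35 in any library. Markers of squamous or basal epithelium, at 912 in sum in the control, were between 2198 and 6398 in the others. KRT5 went from 95.5 to between 1024 and 4079, and TP63, KRT14 and KRT6A were also higher in all 3. SFN was nearly level under the POU2F3 guide, at 784 against 744. The mesenchymal markers were at 40675 against 70347 to 104436, with VIM the largest, at 29301 against 42971 to 80266. FN1, CDH2 and ZEB1 were also higher in all 3, whereas ZEB2 was lower, at 982 against 562 to 945. The part of these shifts in the values below was not tested, and in bulk RNA fewer cells of a type and less RNA per cell cannot be told apart.

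The promoters of 3 members are shown because their genes behaved differently: CLDN4 was furthest above the control among the members whose normalized counts averaged 20 or more, CLDN1 the claudin with the most reads there and lower in the others, and DSG3 the member past 2-fold under the COLCA2 guides and not under the POU2F3 guide. They come from RefSeq (GRCh38.p14) and run from 250 bases before to 50 after the start, 5′ to 3′ on the gene's strand. Capitals mark matches to the motifs described below.
CLDN4, chr7:73830746-73831045, plus strand: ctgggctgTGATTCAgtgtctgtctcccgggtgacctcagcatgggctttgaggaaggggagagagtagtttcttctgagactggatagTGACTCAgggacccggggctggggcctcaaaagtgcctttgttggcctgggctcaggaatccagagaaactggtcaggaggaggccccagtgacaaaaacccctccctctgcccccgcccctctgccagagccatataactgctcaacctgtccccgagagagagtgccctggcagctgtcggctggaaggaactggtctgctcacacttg
CLDN1, chr3:190322397-190322696, minus strand: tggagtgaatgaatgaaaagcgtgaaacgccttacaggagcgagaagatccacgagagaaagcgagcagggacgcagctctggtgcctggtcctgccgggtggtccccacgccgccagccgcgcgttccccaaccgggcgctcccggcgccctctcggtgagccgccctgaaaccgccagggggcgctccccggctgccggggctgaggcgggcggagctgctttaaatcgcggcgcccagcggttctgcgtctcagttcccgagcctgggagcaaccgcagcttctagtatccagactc
DSG3, chr18:31447491-31447790, plus strand: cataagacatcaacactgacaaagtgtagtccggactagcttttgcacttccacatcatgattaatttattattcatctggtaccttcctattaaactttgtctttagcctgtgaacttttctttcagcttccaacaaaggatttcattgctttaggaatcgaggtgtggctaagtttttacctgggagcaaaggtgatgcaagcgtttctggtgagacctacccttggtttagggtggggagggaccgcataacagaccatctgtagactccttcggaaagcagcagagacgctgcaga

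Motifs were searched on both strands. The octamer ATGCAAAT, bound by POU factors, was in 0 of the 33 promoter entries, from 21 members, that belong to members past the expression minimum, against 1.77% of all 35116 entries of the same length. The AP-1 motif TGANTCA was in 3 of the 33, against 7.71% of all entries. The CLDN4 window held it in 2 places, starting at -242 and -161 relative to the transcript start, and the other 2 windows shown held no match to any motif. The E-box CACCTG, bound by SNAI and ZEB repressors, was in 11 of 33 (33.3%) against 20.6% of all entries. The TEAD motif GGAATG was in 1 of 33 against 14.0%, and the GRHL motif AACCGGTT in 0 of 33 against 0.134%. No match in the member promoters overlapped a match to another motif. These matches describe letters and not bound sites.

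Of the 48 members, 29 reached a mean normalized count of at least 20 over the 4 libraries, the expression minimum. These were 11 of the 24 claudins, all 4 of the other tight junction membrane proteins, all 5 tight junction plaque proteins, 3 of the 7 desmosomal cadherins and 6 of the 8 desmosomal plaque proteins. Of the 19 members under the minimum, 4 (CLDN17, CLDN22, CLDN25 and DSG4) had no read in any library, where 3 reads is the limit that a count of 0 allows, and the other 15 had at most 38 reads. The stratified-type genes DSG1, DSC1, DSC3, PKP1 and EVPL were all in this low group. DSG3, also best known from stratified epithelia, and PPL were past the minimum, with means of 94.9 and 708.

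Read per kilobase of the longest principal transcript in GENCODE 29, the control was led by CLDN7, CLDN1, DSP and JUP, at 1782, 1432, 1323 and 1283 normalized counts per kilobase. PKP4, PKP3, DSG2 and F11R were between 848 and 966. CLDN4 was at 71.1 per kilobase on this scale, or 162 over its shortest principal transcript, since its annotated transcripts differ in length from 1831 to 4163 bases. In the libraries with a targeting guide CLDN4 was between 565 and 862 over the longest transcript and between 1285 and 1960 over the shortest. CLDN1 was between 775 and 993 there, so which of the pair was higher per kilobase depends on the transcript used.

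**Figure D1:**
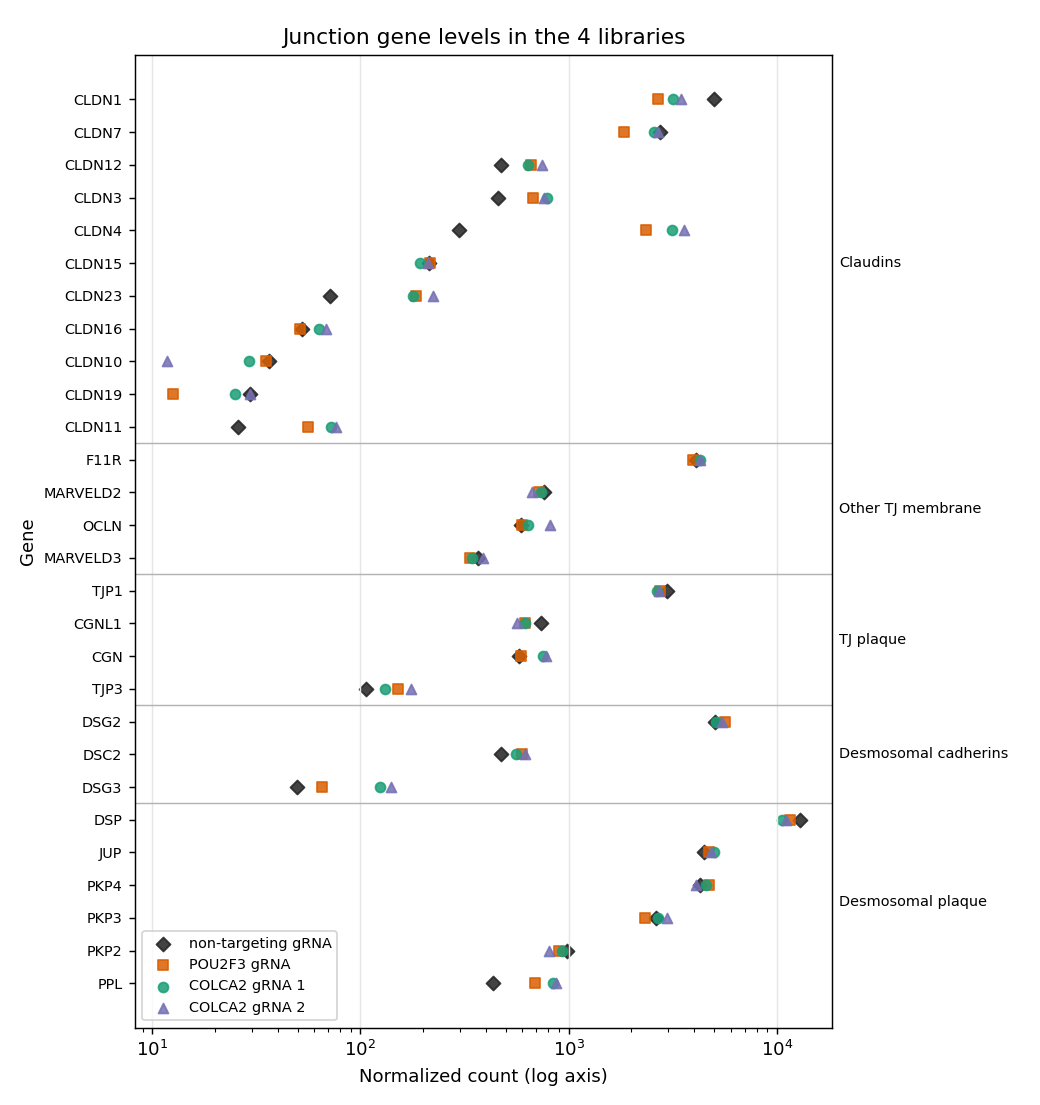
Normalized count (log axis) of 28 of the 29 members past the expression minimum in each of the 4 libraries, grouped by class and ordered by the level in the control. CLDN4 stands at 296 in the control and between 2354 and 3588 in the other 3, whereas DSP, JUP and F11R have their 4 points close together.

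Each library was set against the single non-targeting library, as a log2 ratio of normalized counts with 1 added to each. The POU2F3 and non-targeting groups hold 1 library each, so a 2-fold limit stands in for a test, and for COLCA2 both guides had to pass it. The 3 ratios share their control, and the labels do not say whether the 2 COLCA2 libraries come from separate cultures. Intervals, given for some of the folds and shares, are exact (Clopper-Pearson) 95% intervals for counting error alone. The labels name no molecular identifiers, so reads are not independent molecules.

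With POU2F3 gRNA 3 of 29 members (10.3%) were at least 2-fold higher, against 6.73% of all genes past the minimum, and 1 was at least 2-fold lower, against 3.05%. The higher members were the claudins CLDN4, CLDN11 and CLDN23, and the lower one was CLDN19. With both COLCA2 guides 4 of 29 (13.8%) were at least 2-fold higher, against 5.79% of all genes, and 0 were lower, against 2.02%. These were the same 3 claudins and DSG3. All 3 libraries were at least 2-fold higher for CLDN4, CLDN11 and CLDN23, a call made for 4.89% of all genes. Taken singly, guide 1 had 4 members higher and 0 lower, against 6.44% and 3.19% of all genes, and guide 2 had 5 higher and 1 lower, against 7.25% and 3.64%. Each of these counts rests on at most 5 genes. The median log2 ratio of the 29 members was 0.0065 under the POU2F3 guide and 0.072 over the mean of the COLCA2 guides, beside -0.0037 and -0.0086 over all 14940 genes. In 18 of the 29 (62.1%) all 3 libraries lay within 1.5-fold of the control, against 68.2% of all genes. By class these were 3 of 11 claudins, 4 of 4 other tight junction membrane genes, 4 of 5 tight junction plaque genes, 2 of 3 desmosomal cadherins and 5 of 6 desmosomal plaque genes.

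**Figure D2:**
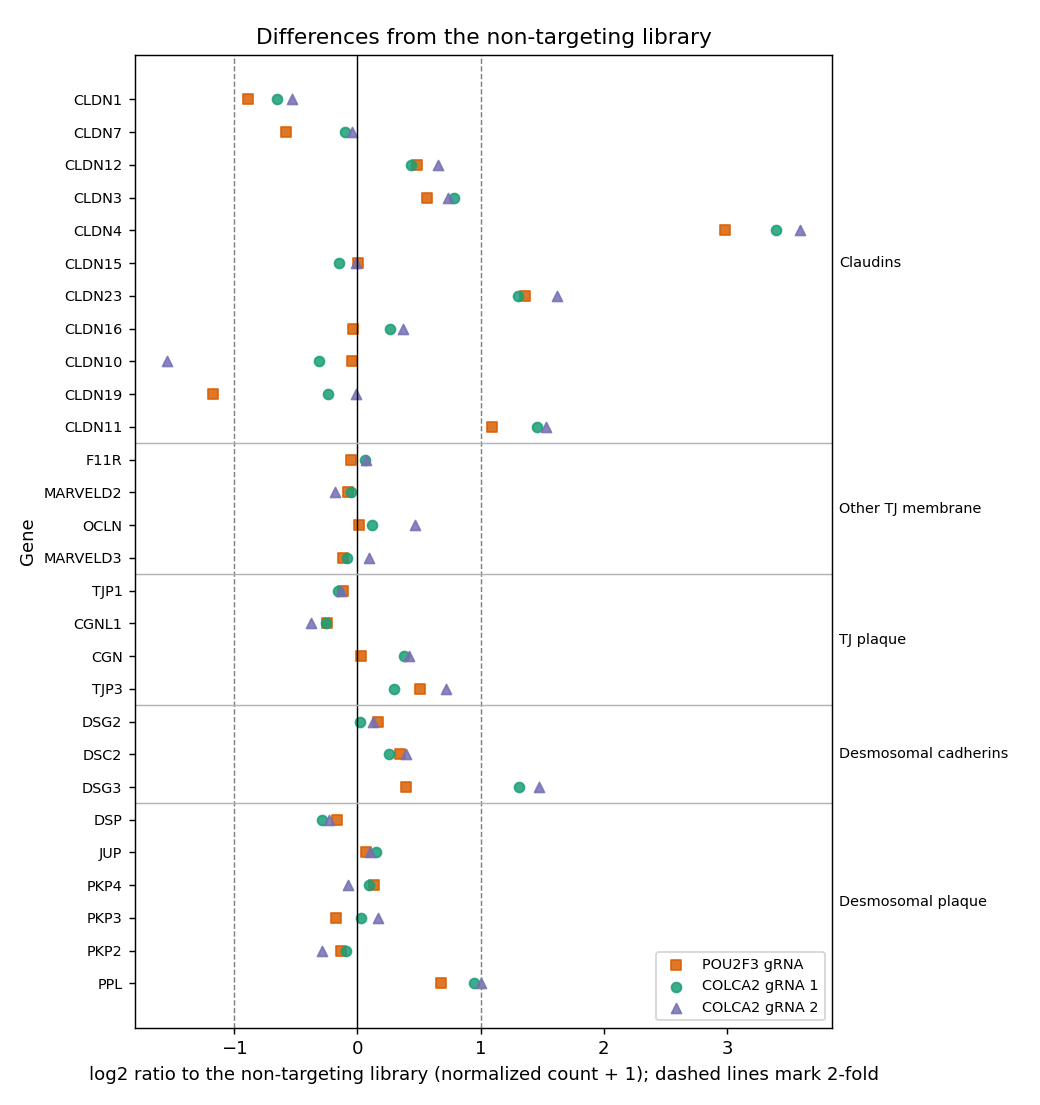
Log2 ratio to the control of 28 of the 29 members, by class, for POU2F3 gRNA and both COLCA2 guides; dashed lines mark 2-fold. The CLDN4 points lie between 2.99 and 3.59, and the tight junction membrane and plaque genes drawn, other than claudins, lie between -0.38 and 0.72.

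Among the 29 members past the minimum, claudins lay furthest from the control in both directions. CLDN4 (ENSG00000189143), a claudin of tight epithelia also known as a toxin receptor, maps to chromosome 7 (GRCh38, 73799542 to 73832693, plus strand), and none of its exons overlap another annotated gene. CLDN4 stood at a normalized count of 296 in the control, 2354 under the POU2F3 guide and 3121 and 3588 under COLCA2 guides 1 and 2. All 3 targeting libraries were thus far above the non-targeting one, at 7.95-fold under the POU2F3 guide (interval 7.07 to 8.97) and 10.5-fold and 12.1-fold under the COLCA2 guides. The log2 ratio was 2.99 under the POU2F3 guide and 3.49 ± 0.14 under the COLCA2 guides (SD, n = 2). edgeR's quasi-likelihood test on the recovered reads, with Benjamini-Hochberg adjustment over all genes, gave an adjusted p of 0.00011 for POU2F3 gRNA and 3.8e-05 for COLCA2 gRNA. Its spread has 1 residual degree of freedom, from the pair of COLCA2 libraries, and where a group has 1 library it compares libraries and not conditions. The neighbouring CLDN3, 29271 bases away on the opposite strand and likewise a claudin of tight epithelia, had normalized counts of 456, 677, 788 and 762 in the same order. CLDN3 was higher in all 3 libraries but under 2-fold, with log2 ratios of 0.57 under the POU2F3 guide and 0.76 ± 0.034 under the COLCA2 guides (SD, n = 2), and edgeR adjusted p-values of 0.0497 and 0.0092.

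CLDN1 (ENSG00000163347; chromosome 3, 190305701 to 190322475, minus strand), the claudin of the skin barrier, took the most claudin reads in the control. It was at 4986 there, 2698 under the POU2F3 guide and 3165 and 3456 under COLCA2 guides 1 and 2. It was lower in every targeting library without reaching 2-fold, with log2 ratios of -0.89 and -0.59 ± 0.090 (SD, n = 2) and edgeR adjusted p-values of 0.0033 and 0.0065. CLDN16, which begins 65 bases from CLDN1 on the opposite strand, had 52.5, 51.2, 63.2 and 68.2 in the same order, between -0.036 and 0.37 on the log2 scale. CLDN7, a lateral membrane claudin, had 2748 in the control, 1835 under the POU2F3 guide and 2563 and 2672 under the COLCA2 guides. Only the POU2F3 gRNA library stood apart for CLDN7, with a log2 ratio of -0.58 and an edgeR adjusted p of 0.018, against -0.071 ± 0.043 (SD, n = 2) under the COLCA2 guides and an adjusted p of 0.66. The direct edgeR comparison of the POU2F3 guide against both COLCA2 guides gave CLDN7 an adjusted p of 0.11. The CLDN7 values come from 1 row whose identifier is not in GENCODE 29, and its length was taken from the gene of that symbol. A row under the identifier that GENCODE 29 gives this gene was not analysed here, so the CLDN7 level, its rank and the claudin shares rest on the row used.

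CLDN23 and CLDN11 were also past 2-fold in all 3 libraries, at lower levels. CLDN23 had 71.6 in the control, 185 under the POU2F3 guide, 178 under COLCA2 guide 1 and 222 under COLCA2 guide 2, so all 3 were above the control. The symbol sums 2 rows, which differed: the primary row had log2 ratios of 2.38, 1.97 and 2.57 under the POU2F3 guide and COLCA2 gRNA 1 and 2, and the second row had 0.43, 0.83 and 0.80. Only the primary row was past 2-fold, and reads of near-identical copies may be split between the rows. CLDN11, the claudin of myelin and the testis, had 25.8, 56.2, 72.6 and 76.4, from 27 reads in the control and 65 to 70 in the others. The CLDN11 fold under the POU2F3 guide was 2.18 with an interval of 1.38 to 3.55, and the edgeR adjusted p was 0.17, against 0.046 for COLCA2 gRNA. Of its 3732 exon bases 683 overlap AC026316.5 on the same strand.

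The remaining claudins past the minimum did not pass 2-fold in both comparisons. CLDN12, a claudin without the usual PDZ-binding end, had 472, 661, 639 and 741 in the order above, with log2 ratios between 0.44 and 0.65. CLDN15, a cation-pore claudin of the intestine, had between 193 and 215 in all 4 libraries. CLDN19, known from kidney and retina, had 31 reads in the control, 15 under the POU2F3 guide and 24 and 25 under the COLCA2 guides. Its fold of 0.425 under the POU2F3 guide had a counting interval of 0.213 to 0.812, and the edgeR adjusted p was 0.24. CLDN10 was the member on which the COLCA2 guides differed at least 2-fold, with 28 reads with gRNA 1 and 10 with gRNA 2 beside 42 under the POU2F3 guide and 38 in the control. The guides were 2-fold apart for 2.22% of all genes.

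The make-up of the claudin reads shifted while their sum moved less. The summed normalized count of the 24 claudins was 9472 in the control, 8850 under the POU2F3 guide and 10916 and 11905 under COLCA2 guides 1 and 2. CLDN4 took 3.13% of the claudin reads in the control (interval 2.79% to 3.49%), 26.6% under the POU2F3 guide (25.8% to 27.4%), 28.6% under COLCA2 guide 1 (27.7% to 29.5%) and 30.1% under COLCA2 guide 2 (29.2% to 31.0%). CLDN1 took 52.6%, 30.5%, 29% and 29% in the same order. The intervals of the control did not meet those of the others for either gene. Shares of reads are not corrected for transcript length and are read within a gene across libraries only.

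**Figure D3:**
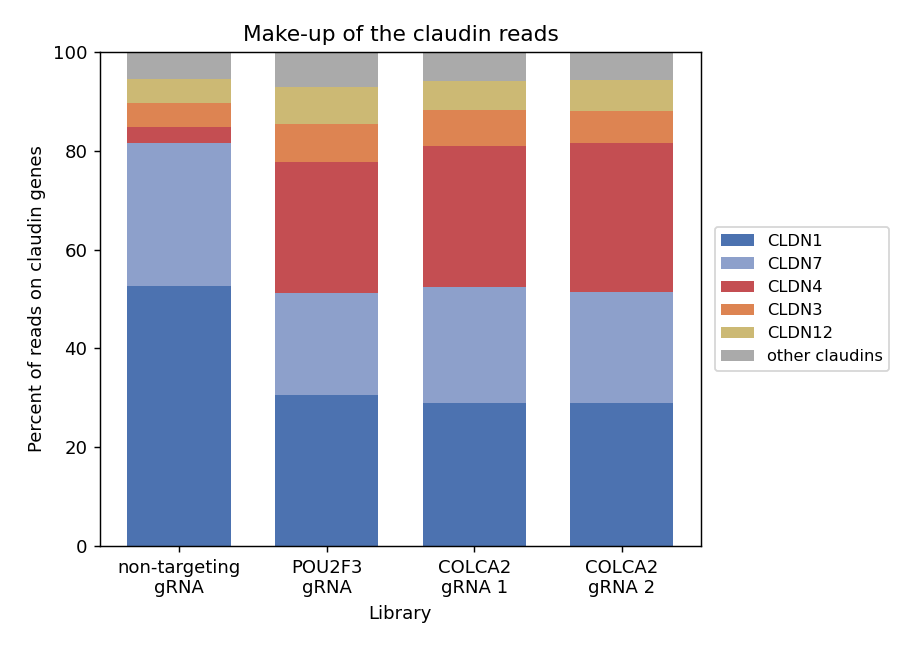
Percent of all reads on claudin genes taken by CLDN1, CLDN7, CLDN4, CLDN3, CLDN12 and the other claudins together, 1 bar per library. CLDN4 takes 3.13% of the bar in the control and between 26.6% and 30.1% in the other 3, and the CLDN1 part goes from 52.6% to between 29% and 30.5%.

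The other membrane proteins of the tight junction were nearly level. F11R, the adhesion molecule JAM-A and the highest of them per kilobase, had normalized counts of 4102 in the control, 3947 under the POU2F3 guide and 4281 and 4295 under the COLCA2 guides. Of the 5066 exon bases of F11R, 1853 overlap AL591806.3 on the same strand. MARVELD2 (tricellulin), which seals the points where cells meet in threes, had between 669 and 758, and MARVELD3 between 337 and 389. OCLN (occludin) had 590, 596, 641 and 816 in the order above, so only COLCA2 gRNA 2 stood apart, at a log2 ratio of 0.47. None of these 4 genes passed 2-fold or the edgeR threshold in either comparison with the control. OCLN and MARVELD2 each sum 2 rows, and the second row held between 23.3% and 32.2% of their signal.

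Values are given for 4 of the 5 plaque genes. TJP1 (ZO-1) had normalized counts of 2974 in the control, 2746 under the POU2F3 guide and 2670 and 2704 under COLCA2 guides 1 and 2, so its libraries were nearly level. TJP1 sums 2 rows, and the second row held between 39.0% and 43.8% of its signal. TJP3 (ZO-3), a scaffold of epithelial cells, had 106, 151, 131 and 175 in the same order. CGN (cingulin), which ties the plaque to actomyosin, had 580, 593, 753 and 776, higher under the COLCA2 guides than under the POU2F3 guide, by 0.37 on the log2 scale. Its relative CGNL1 (paracingulin) had 732, 617, 614 and 565. All log2 ratios of these 4 genes lay between -0.38 and 0.72, under 2-fold in every library.

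The desmosomal cadherins split by level. DSG2, the desmoglein of simple epithelia, had 5017 in the control, 5633 under the POU2F3 guide and 5082 and 5473 under the COLCA2 guides. DSC2, its desmocollin counterpart, had 471, 599, 561 and 617. Neither DSG2 nor DSC2 passed 2-fold in any library. DSG3 (ENSG00000134757; chromosome 18, 31447795 to 31478702, plus strand), the pemphigus antigen of stratified epithelia, was low, with 49.7 in the control, 65.5 under the POU2F3 guide and 124 and 140 under COLCA2 guides 1 and 2. Both COLCA2 libraries were above both others. The fold was 2.51 with gRNA 1 (interval 1.80 to 3.54), 2.82 with gRNA 2 (2.02 to 3.98) and 1.32 under the POU2F3 guide (0.917 to 1.91), and the edgeR adjusted p was 0.030 for COLCA2 and 0.56 for POU2F3. The direct comparison put POU2F3 gRNA lower by a mean of 1.0 on the log2 scale, with an edgeR adjusted p of 0.26, so a difference between the targets was not called. All 7 desmosomal cadherin genes stand side by side on chromosome 18, where DSG3 and DSG2 are 19340 bases apart, and of its other genes DSC1, DSC3, DSG1 and DSG4 had at most 20 reads in any library.

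Most of the desmosomal plaque was nearly level, and DSP and JUP led it per kilobase. DSP, which links desmosomes to keratin, had a normalized count of 12955 in the control, 11553 under the POU2F3 guide and 10623 and 11010 under the COLCA2 guides. JUP (plakoglobin) had 4488, 4720, 4994 and 4816, and PKP4 had 4292, 4724, 4582 and 4067. These genes lay within 1.5-fold of the control in every case. The plakophilins PKP2 and PKP3 had 986 and 2632 in the control, between 807 and 924 and between 2338 and 2962 in the others. PPL (periplakin), a cornified envelope protein that also binds keratin, was the exception, with 434, 692, 837 and 869. PPL was higher in all 3 libraries, and only COLCA2 gRNA 2 reached 2-fold, at a log2 ratio of 1.0 beside 0.95 with gRNA 1 and 0.67 under the POU2F3 guide. Its edgeR adjusted p was 0.027 for POU2F3 gRNA and 0.0033 for COLCA2 gRNA.

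By edgeR the POU2F3 gRNA library had 4 members higher (CLDN3, CLDN4, CLDN23 and PPL) and 2 lower (CLDN1 and CLDN7), beside 8.45% and 3.98% of all genes. The COLCA2 guides had 7 higher (CLDN3, CLDN4, CLDN11, CLDN12, CLDN23, DSG3 and PPL) and 2 lower, CLDN1 among them, beside 11.4% and 7.51%. Set directly against each COLCA2 guide, the POU2F3 gRNA library had 0 of 29 members at least 2-fold lower, against 0.924% of all genes, and 0 higher, against 0.442%. edgeR's quasi-likelihood test called 0 members lower, against 0.234%, and 0 higher, against 0.107%, and 6 members (CGN, CLDN1, CLDN4, CLDN7, DSG3 and PKP3) had an unadjusted p under 0.05, which is 20.7% of the members beside 13.6% of all genes. Beside DSG3, the members furthest apart were CLDN19, at 12.6 against 24.9 and 29.4, and CLDN10. The CLDN4 level was lower under the POU2F3 guide than with either COLCA2 guide, by 0.41 and 0.61 on the log2 scale, and the edgeR adjusted p of that difference was 0.17.

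Junction partners outside the rule were counted from 5 lists, and the share of all genes at least 2-fold higher in all 3 libraries was 4.89%. The 17 polarity and apical genes, whose complexes place the tight junction, had 1 member at least 2-fold higher in all 3 libraries, AMOTL2, an angiomotin family scaffold, with 3768 in the control, 9736 under the POU2F3 guide and 9027 and 8564 under the COLCA2 guides. The 13 adherens junction genes had 3 such members. CDH1 (E-cadherin) had 747, 2126, 2351 and 2537, VCL (vinculin) 2789, 7912, 8857 and 9364, and NECTIN4, a nectin adhesion molecule, 18.1, 143, 262 and 253. E-cadherin, vinculin and NECTIN4 thus stood above the control. CTNNB1 and CTNND1, catenins that bind E-cadherin, lay between -0.27 and 0.20 on the log2 scale. CTNNA1, another catenin gene of this list, was higher in all 3 libraries, between 0.45 and 0.52. NECTIN1 and NECTIN2 were also higher in all 3, between 0.57 and 0.95, whereas NECTIN3 lay between -0.45 and 0.023. Of the other junction membrane proteins 10 of 15 passed the minimum and 1, the gap junction protein GJA1, was past 2-fold in all 3 libraries, from 20.1 to 282, 257 and 375. In the same list PERP was at least 2-fold higher with both COLCA2 guides, at 7039 and 8165 against 2969 in the control. Under the POU2F3 guide PERP had 5761, a log2 ratio of 0.96. ESAM had 117 in the control, 45.3 under the POU2F3 guide and 78.8 and 52.9 under COLCA2 guides 1 and 2. It was at least 2-fold lower under the POU2F3 guide and COLCA2 guide 2.

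Among 18 epithelial junction regulators, 6 (33.3%) were at least 2-fold higher in all 3 libraries, beside the same 4.89% of all genes. Like the other lists, this one was chosen with earlier results of these data known, so its share is not a test. Ranked by the smallest of their 3 ratios, the first 4 were GRHL3, a grainyhead factor of barrier epithelia, ELF3, TP63, the master factor of basal epithelium, and KLF5. GRHL3 had 62.1 in the control, 461 under the POU2F3 guide and 471 and 519 under the COLCA2 guides. The corresponding counts were 424, 1907, 2702 and 2978 for ELF3, 38.2, 159, 188 and 265 for TP63, and 649, 2471, 2521 and 2519 for KLF5. The others were OVOL1 and the repressor SNAI2, and OVOL1 lay above KLF5 in its mean log2 ratio under the COLCA2 guides, at 2.11 against 1.95. OVOL2, a repressor of mesenchymal genes, had 596 in the control, 294 under the POU2F3 guide and 355 and 274 under COLCA2 guides 1 and 2. It was thus at least 2-fold lower under the POU2F3 guide and COLCA2 guide 2. GRHL2, EHF, TWIST1 and ESRP1 were also lower in all 3 libraries without reaching 2-fold. GRHL2 had 1539, 929, 881 and 1082 in the same order, and EHF 13730, 9460, 8765 and 9497. TWIST1 had 4114, 2222, 2396 and 2249, and ESRP1 2623, 1746, 1804 and 2129. At least 2-fold lower in all 3 libraries were 0 regulators, against 1.5% of all genes. Of the 9 junction proteases and kinases only MYLK was past 2-fold in all 3, from 129 to 417, 603 and 662. The medians of the 5 lists over the mean of the COLCA2 guides ran from -0.079 for the polarity genes to 0.43 for the regulators, beside -0.0086 over all genes. Under the POU2F3 guide the order differed, from -0.085 for the polarity genes to 0.52 for the adherens junction genes with the regulators at 0.18, beside -0.0037 over all genes.

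**Figure D4:**
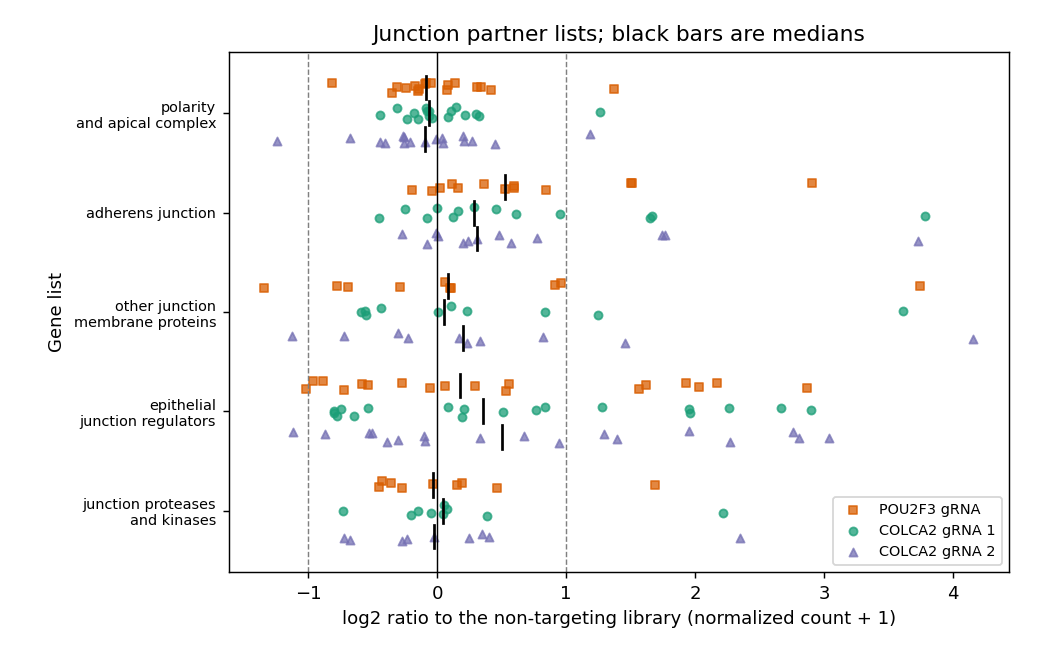
Log2 ratio to the control of each partner gene past the expression minimum, by list, for POU2F3 gRNA and both COLCA2 guides; black bars are medians and dashed lines mark 2-fold. The polarity genes lie under 2-fold apart from AMOTL2, between 1.18 and 1.37, and MPP5 under COLCA2 guide 2, at -1.24, and the regulators spread from -1.12 to 3.04.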

How the data were processed

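RNA was extracted with TRIzol and chloroform, selected for poly(A) and prepared with an NEBNext Ultra II kit, per the labels' protocols. The submitters' processing notes name Salmon, DESeq2 and hg38 with no role or order, and the annotation and use of the strand are not given in the sources used here. Per the file headers, the deposited signal is a normalized count per gene, and its values are on a linear scale. Multiplying by 1 factor per library turned 100% of the values into whole numbers (within 1e-06 reads), so whole reads were recovered. Whole values can be rounded estimates of the quantifier.

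Rows of a symbol were summed, which joined 2 rows for 4 members. Genes with a mean of at least 20 were kept (14940), the pseudocount was 1 and the limit 2-fold. edgeR 4.0.16 (R 4.3.3; TMM, 3 groups, adjusted p under 0.05) was run on the recovered reads over all kept genes as an alternative, and called 595 genes lower and 1263 higher under the POU2F3 guide, and 1122 and 1709 under COLCA2 guides. Its scripts were tested on simulated data. Positions and lengths come from GENCODE 29, and promoters were found for 35 of 48 members.

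By the naming rule, values in all libraries are given for members that reach 100 in 1 library and pass 2-fold, for the highest member of each class and for members at least 2-fold apart between targets or between COLCA2 guides. Other members and partners with values were named after those were seen. Partner genes are named if they reach 100 and pass 2-fold in all 3 libraries, up to 4 a list. The members and lists were chosen with earlier results of these data known. With 1 library in the POU2F3 and non-targeting groups, p-values rest on the spread between the COLCA2 guides, which may be technical. Other settings tried were pseudocounts, scalings, minimums, fold limits, single rows and each guide left out. The values of 1 tight junction plaque gene are not reported here, although counts and medians over members include it, and the plots show the other 28 members past the minimum.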

Additional observations from a re-analysis of the deposited data

Results flagged for a closer look

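PKP1, the plakophilin of stratified epithelia, lay under the expression minimum and so in no comparison, but it had reads in every library with a targeting guide and none in the non-targeting library. Its reads numbered 24 and 21 under COLCA2 guides 1 and 2, and 20 under the POU2F3 guide. Counting error in both libraries allows a fold as low as 6.53, 6.41 and 4.34 in the same order, the lower ends of the exact (Clopper-Pearson) 95% intervals. Set against 3 reads, the limit that a count of 0 allows in the non-targeting library, the ratios were 8.69, 8.62 and 5.86. EVPL (envoplakin), the partner of periplakin, had 38 reads under COLCA2 guide 1 and 8 or 9 in the other libraries, so 1 guide alone stood apart.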

How the results depend on the processing

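No paired analysis was possible because only COLCA2 has more than 1 library. CLDN4, CLDN23 and the COLCA2 ratios of CLDN11 and DSG3 stayed past 2-fold under every scaling, pseudocount and left-out guide that was run. They also did so with the single row of highest mean, which for CLDN23 is the row with the larger ratios. The other CLDN23 row, with 69.3% of the control signal, was under 2-fold. It was at 0.43 under the POU2F3 guide and 0.83 and 0.80 under COLCA2 guides 1 and 2. CLDN4 ranged from 2.95 to 3.0 with POU2F3 gRNA and from 3.39 to 3.59 with the COLCA2 guides. CLDN11 and CLDN19 fell under 2-fold with POU2F3 gRNA at a pseudocount of 10 (0.89 and -0.81).

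Members lower with POU2F3 gRNA, 1 as reported, numbered 0 with a pseudocount of 10, a minimum of 100 or a 4-fold limit, 2 with a 1.5-fold limit or edgeR, and 4 without a minimum. Members higher with POU2F3 gRNA numbered 5 without a minimum and 1 with a 4-fold limit. Members lower with both COLCA2 guides, 0 as reported, numbered 2 without a minimum or by edgeR. Members higher with both guides numbered 7 without a minimum or by edgeR, 2 with a minimum of 100 and 1 with a 4-fold limit. Members lower with POU2F3 gRNA than with each guide, 0 as reported, numbered 3 without a minimum and 2 with a 1.5-fold limit. With 1 guide left out, members lower with COLCA2 gRNA ranged from 0 to 1 (CLDN10, without gRNA 1), and POU2F3 gRNA had 0 to 2 members lower and 0 to 1 higher than the remaining guide, the highest values being without gRNA 1.

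The member median with POU2F3 gRNA was -0.028 with equal totals, -0.030 with equal upper quartiles, -0.029 with single rows and 0 without a minimum, and the mean was 0.16, so it has no settled sign. With COLCA2 gRNA the median was 0.0029 with equal totals, 0.027 with equal upper quartiles and 0.0047 without a minimum, 0.061 to 0.10 with 1 guide left out, and the mean was 0.31. Depth limits CLDN10, CLDN11 and CLDN19, which rest on 10 to 70 reads a library.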
